A study of Mus musculus with 3 samples.

Results

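This account describes 10 mouse genes that are read as signs of tissue-repair macrophages, or that belong to the chitinase-like proteins, in spleens bearing islet grafts: Arg1, Retnla, Chi3l1, Chi3l3, Il10, Mgl2, Trem2, Gpnmb, Spp1 and Tgfbi. They were taken by name, with every probe that carries the name, from the 34796 gene names of the array. Each had 1 probe, and all 10 were well above background on at least 1 array.

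Spleens of C57BL/6J recipients were measured on 3 one-color arrays of 1 slide, with 1 array for each time. Per the methods, the recipients were male, made diabetic with streptozotocin (STZ), a toxin of beta cells, and received syngeneic islets, 25 into the spleen and 100 beneath the kidney capsule (SP25+KC100). Sample 1 was taken immediately after transplantation (day 0), Sample 2 on day 2, and Sample 3 on day 139, after a nephrectomy on day 100 that took away the capsular graft. STZ and the operation are shared by all 3 samples, so no untreated spleen is among them. The time and the animal cannot be told apart in any comparison, nor can the nephrectomy be told apart from them in Sample 3. The number of mice behind an array is not given, and the methods' age range, 8 to 16 weeks for the mice of the whole study, is not tied to the arrays. There are no replicates, so differences are described for these arrays, with no test of the conditions and no p-value.

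Macrophages that meet interleukin-4 or interleukin-13 switch, through the factor STAT6, to a program called alternative activation, in which they make arginase, the resistin-like protein Retnla and chitinase-like proteins. Another program, seen where macrophages clear dying cells and lipid, is marked by the lipid receptor Trem2, the glycoprotein Gpnmb and the matrix protein osteopontin (Spp1). In the spleen, resident macrophages mainly clear old red cells and blood-borne particles, while recruited monocytes and neutrophils arrive after injury. Several of these genes are also used outside macrophages: neutrophils and their precursors make chitinase-like proteins, B cells and regulatory T cells make Il10, and fibroblasts make Tgfbi.

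Signals were quantile normalized and are given in arbitrary units. A signal of 1 probe was not set against that of another, since probes differ in brightness. The error of a spot, as the scanner software estimates it, came to between 0.20 and 0.54 on a log2 ratio of these genes. A Z-score is the log2 ratio in units of the SD found among 1000 probes of the most similar mean signal, and a gene is called higher at a Z-score of at least 2 with a ratio of at least 1.5, or lower at a Z-score of at most -2 with a ratio of at most 0.66. Where a probe was not well above background, a lower limit of the fold is given, set by whichever is brighter, the probe itself or the dimmest probe well above background on that array (12.9 on day 0, 14.0 on day 2 and 18.2 on day 139). A Z-score printed beside such a limit comes from the measured signal, not from the limit, and is not exact.

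Trem2, Spp1 and Gpnmb were high on day 2, Chi3l1 and Chi3l3 on day 0, and Arg1 on both, and none of these was high on day 139. In Sample 2 over Sample 1, 3 of the 10 were called higher (Trem2, Spp1 and Gpnmb) and 2 lower (Chi3l1 and Chi3l3), against 1.91% of all detected probes called higher and 2.55% called lower. In Sample 3 over Sample 1, none was called higher, where 2.52% of all probes were, and 4 were called lower (Arg1, Spp1, Chi3l1 and Chi3l3), where 2.21% were. In Sample 3 over Sample 2, none was called higher against 2.39% of all probes, and 4 were called lower (Arg1, Spp1, Trem2 and Chi3l3) against 1.77%. Retnla, Mgl2, Il10 and Tgfbi passed the criteria in no comparison. These shares of all probes apply to every list below, so a short list without a call says little about its genes.

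The distance between the highest and the lowest sample had a median of 2.21 on the log2 scale over the 10 genes, and of 0.50 over all detected probes. Of the 10 genes, 6 lay above the 90th percentile of all detected probes, which was 1.53. Il10 was among these 6 with a distance that also rounds to 1.53, and it passed in no comparison. The genes were chosen with earlier results of these data known, so neither these distances nor the shares of calls above are a test of them. The distances of Arg1 and Spp1 also rest on Sample 3 signals that were not well above background. By order, 4 genes were highest on day 0, 4 on day 2 and 2 on day 139, and 6 were lowest in Sample 3. Over all detected probes the highest signal fell on Samples 1, 2 and 3 in 32.2%, 34.5% and 33.3%, and the lowest in 31.6%, 29.8% and 38.6%. The median log2 ratio of the 10 genes was -0.07 in Sample 2 over Sample 1, -1.04 in Sample 3 over Sample 1 and -0.66 in Sample 3 over Sample 2, while that of all detected probes was 0.01, -0.02 and -0.04.

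**Figure D1:**
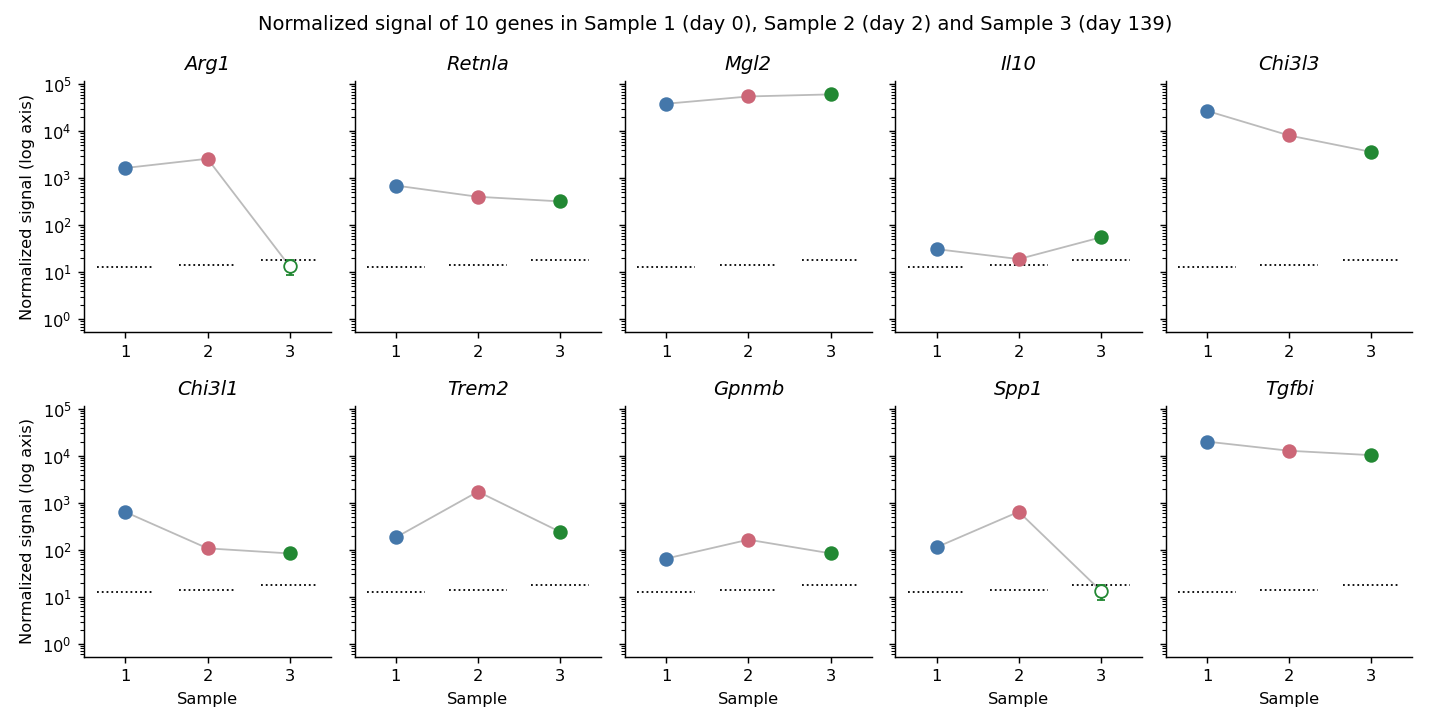
Normalized signal (log axis) of the 10 genes in Sample 1, Sample 2 and Sample 3, 1 array each, with the spot error of the scanner software as a bar. Open circles were not well above background, and dotted lines mark the lowest signal well above background on each array. Arg1 and Spp1 lie below that line in Sample 3, while Mgl2 and Tgfbi are at 10356 or above in all 3 samples.

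Arg1 encodes arginase 1, which splits arginine into ornithine and urea and so takes it away from nitric oxide synthesis. Its probe reads a stretch of coding sequence on the minus strand of chr10:24636194-24636253 (mm9), shown whole because this gene has the widest difference between samples:

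Arg1 probe: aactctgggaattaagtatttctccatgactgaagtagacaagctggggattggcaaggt

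The Arg1 signal was 1654 on day 0, 2602 on day 2 and 13.4 on day 139, where it was not well above background. It was high and close in the early samples and at the background in the late one. Sample 2 over Sample 1 gave a ratio of 1.57 and a log2 ratio of 0.65 with a Z-score of 1.16, which is within the spread of probes of like signal. Arg1 was at least 90.9-fold lower in Sample 3 than in Sample 1, with a Z-score of -10.63, and at least 143-fold lower than in Sample 2, with a Z-score of -10.79.

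Genes of arginine metabolism around Arg1 gave calls in both directions. Of 13 further genes measured, 1 was called higher and 2 lower in Sample 2 over Sample 1, 1 higher and 1 lower in Sample 3 over Sample 1, and 1 lower in Sample 3 over Sample 2. Nos2, the inducible nitric oxide synthase that competes for arginine, had signals of 280, 268 and 332 in Samples 1, 2 and 3 and passed in no comparison. Slc7a1, the main arginine transporter of most cells, fell from 4591 in Sample 1 to 2347 in Sample 2, a log2 ratio of -0.97, and had 2726 in Sample 3. Slc7a2, the transporter linked to activated macrophages, had 70.4 in Sample 1 and fell from 82.0 in Sample 2 to 26.4 in Sample 3, a log2 ratio of -1.64. Arg2, the mitochondrial arginase, had a signal of 152 in Sample 1 and was not well above background in Samples 2 and 3, so both arginase genes ended at the background but at different times.

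Retnla, also called FIZZ1 or RELM-alpha, is a secreted protein and one of the most used marks of alternative activation in mice. Its signal was 700 on day 0, 404 on day 2 and 322 on day 139. Sample 1 was highest and Sample 3 lowest, but no pair of samples was apart beyond the spread of like probes. The log2 ratios were -0.79 (Z-score -1.45) in Sample 2 over Sample 1, -1.12 (Z-score -1.72) in Sample 3 over Sample 1 and -0.33 (Z-score -0.51) in Sample 3 over Sample 2. The last of these turned to 0.07 when the arrays were scaled to their spike-in controls. Its promoter was searched for motifs on both strands of the 250 bases before the start in RefSeq (GRCm38.p6), which held 8 of the 10 genes and neither Arg1 nor Il10. The STAT6 letters TTCNNNNGAA stood 145 bases before the Retnla start and in none of the other 7 member promoters, against 5.85% of 32851 promoters of the same length. The C/EBP letters TTGCNNAA stood 134 bases before it, without overlap, and are held by 9.56% of promoters. These matches are letters in a window and were not tested as sites.

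The resistin family holds 4 genes in the mouse, of which 3 were measured. Retnlg, which neutrophils make, had signals of 13195, 2214 and 1055 in Samples 1, 2 and 3. It fell in Sample 2 over Sample 1 with a log2 ratio of -2.58 (Z-score -5.96) and in Sample 3 over Sample 1 with -3.64 (Z-score -6.09). Retn, resistin itself, had signals of 110, 32.5 and 141, so that it fell to Sample 2 with a log2 ratio of -1.75 (Z-score -2.70) and rose from there to Sample 3 with 2.11 (Z-score 2.97). Retnlb was not well above background on any array. Retnla thus had the narrowest spread over the samples of the 3 measured.

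Mgl2 encodes CD301b, a lectin that binds galactose and N-acetylgalactosamine and sits on dendritic cells and alternatively activated macrophages. Its probe on the plus strand of chr11:69950985-69951044 (mm9) holds the polyadenylation letters AATAAA, in capitals here, as do the Chi3l3 probe and, as ATTAAA, the Trem2 probe. A 30-base stretch of each is shown for these letters, which were not tested as polyadenylation sites:

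Mgl2 probe, bases 28 to 57: tagtgtcgcaacAATAAAatttgagcttta
Chi3l3 probe, bases 31 to 60: atgcttgtttcttgctctcacAATAAAttc
Trem2 probe, bases 28 to 57: tgcactttggacATTAAAcattctccacac

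The Mgl2 signal was 38475 on day 0, 54964 on day 2 and 60833 on day 139. It was bright on every array, and its log2 ratios were 0.51 (Z-score 1.59), 0.66 (Z-score 1.57) and 0.15 (Z-score 0.36). With spike-in scaling, Mgl2 was called higher in Sample 3 over Sample 1, with a log2 ratio of 1.14 and a Z-score of 2.64, and with a scaled median absolute deviation as the spread it was too (Z-score 3.08). The 5 genes measured of a list of galactose-type lectins and Mrc1, Mgl2 among them, had no call in any comparison. Clec10a, the CD301a partner of Mgl2, had signals of 521, 553 and 369, and Mrc1, the mannose receptor that is a classic mark of alternative activation, 5668, 3495 and 3699. Asgr2, a hepatic lectin subunit, had signals of 114, 134 and 142, Asgr1 had 37.8, 33.1 and 12.1, the last of them not well above background, and Clec4f was not well above background on any array.

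Around these genes stands a list of 24 further genes of interleukin-4, interleukin-13 and STAT6 alternative activation, of which 22 were measured. In Sample 2 over Sample 1, 2 were called higher and 4 lower, in Sample 3 over Sample 1, 2 higher and 7 lower, and in Sample 3 over Sample 2, 1 higher and 5 lower. Its medians of -0.38, -0.61 and -0.14 compare with 0.01, -0.02 and -0.04 over all detected probes. With spike-in scaling, under which the median of all detected probes was 0.35 and 0.34 in the comparisons with Sample 3, the last 2 of these medians were -0.24 and 0.25.

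Single genes of this list moved in opposite ways on day 2. Folr2, the folate receptor of resident macrophages, rose from 26.6 to 667 in Sample 2, 25.0-fold, and had 81.3 in Sample 3. Alox15, a lipoxygenase induced by interleukin-4, rose from 70.3 to 312 and was not well above background in Sample 3. Ccl17, a T-cell attracting chemokine, fell from 213 to 38.6 in Sample 2 and was not well above background in Sample 3. Ccl24, an eosinophil-attracting chemokine of alternatively activated macrophages, had 1196 and 853 in Samples 1 and 2 and fell to 92.7 in Sample 3, 12.9-fold below Sample 1 and 9.20-fold below Sample 2. F13a1, a clotting factor subunit, fell from 5393 in Sample 1 to 948 in Sample 3, and Fn1, fibronectin, fell from 17754 in Sample 2 to 4857 in Sample 3. Interleukin-13 and Ccl22 were not well above background on any array. Il4, the gene of interleukin-4, had signals of 55.7, 42.7 and 53.1 in Samples 1, 2 and 3, with no call. The receptor genes Il4ra (783, 328 and 326) and Il13ra1 (94.2, 37.0 and 62.2) were called lower in Sample 2 over Sample 1.

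Genes of classical activation, the program of interferon-gamma and bacterial products, gave no call higher in any comparison among the 13 measured of 15. Over all detected probes the share called higher was between 1.91% and 2.52%. The 2 of these genes called lower in Sample 2 over Sample 1, and again in Sample 3 over Sample 1, were Il1b and Ptgs2. Il1b, the inflammasome cytokine, had signals of 3926, 721 and 1378 in Samples 1, 2 and 3.

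**Figure D2:**
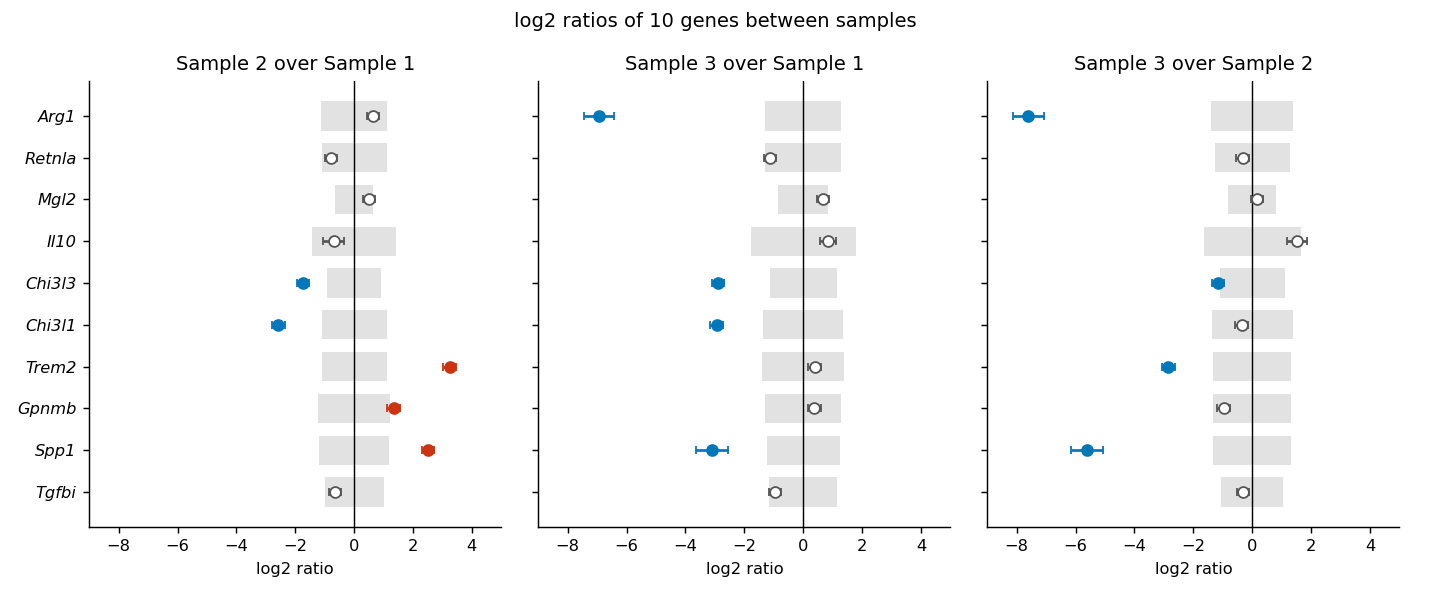
log2 ratios of the 10 genes in the 3 comparisons, with bars for the spot error and grey bands for 2 SD of probes of like signal on each side of 0. Red points are called higher, blue points lower and open points are not called. Trem2, Gpnmb and Spp1 are the 3 red points, all in Sample 2 over Sample 1. Arg1 lies farthest out, at -6.94 and -7.60 in the comparisons with Sample 3. The Sample 3 signals of Arg1 and Spp1 were not well above background, so their points there are not exact ratios.

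Chi3l3 (Ym1, Chil3 in RefSeq) and Chi3l1 (BRP-39, Chil1 in RefSeq) encode secreted proteins of the chitinase fold that bind sugars but lack the active site. Both were highest on day 0. The Chi3l3 signal, from the minus strand of chr3:105950485-105950544 (mm9), was 27148 on day 0, 8128 on day 2 and 3631 on day 139. It fell 3.34-fold from Sample 1 to Sample 2 (log2 ratio -1.74, Z-score -3.75) and was 7.48-fold lower in Sample 3 than in Sample 1 (log2 ratio -2.90, Z-score -5.14). Sample 3 over Sample 2 passed narrowly, at a log2 ratio of -1.16 and a Z-score of -2.11. That call was lost with a normexp background correction (Z-score -1.94), with spike-in scaling (-1.51) and with 1 SD over all probes (-1.45).

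The Chi3l1 signal, from the plus strand of chr1:136086448-136086507 (mm9), was 640 on day 0, 108 on day 2 and 84.1 on day 139. It was high on day 0 alone. It fell 5.92-fold to Sample 2 (log2 ratio -2.57, Z-score -4.67) and was 7.61-fold lower in Sample 3 than in Sample 1 (log2 ratio -2.93, Z-score -4.30). Samples 2 and 3 were not apart, with a log2 ratio of -0.36 and a Z-score of -0.53, which became 0.02 with spike-in scaling.

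Chi3l4 (Ym2, Chil4 in RefSeq), a near-identical neighbor of Chi3l3 on chromosome 3, had the same order. Its signals of 253, 73.6 and 50.9 gave log2 ratios of -1.78 (Z-score -2.91), -2.31 (Z-score -3.56) and -0.53 (Z-score -0.80). How far RNA of Chi3l3 also hybridizes to the Chi3l4 probe was not tested, so the 2 are uncertain as separate readings. The starts of both genes are closely alike as well. Below are the 120 bases before the Chil3 start, at chr3:106167565-106167684, and the 121 bases of Chil4 that align with them, at chr3:106219508-106219628, both on the minus strand of GRCm38.p6 from RefSeq. Capitals mark the 13 bases that differ and the 1 inserted base, and the aligned bases are 89.2% identical:

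Chil3 promoter: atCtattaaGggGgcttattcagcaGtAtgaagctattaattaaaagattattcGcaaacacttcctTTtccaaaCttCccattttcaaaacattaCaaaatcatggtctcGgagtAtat
Chil4 promoter: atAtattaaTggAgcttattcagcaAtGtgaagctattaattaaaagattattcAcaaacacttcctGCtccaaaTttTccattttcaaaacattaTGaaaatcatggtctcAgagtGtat

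The rest of the chitinase family was not called. Of 8 genes of this family list measured, Chi3l1, Chi3l3 and Chi3l4 were the 3 called lower in Sample 2 over Sample 1 and the 3 called lower in Sample 3 over Sample 1. Chi3l7, another chitinase-like gene, had signals of 46.8, 50.6 and 105 and no call. Chid1, Ctbs and Ovgp1, more distant relatives, and Il13ra2, a receptor for Chi3l1, stayed between 38.3 and 171 in all 3 samples with no call. The true chitinases Chia and Chit1 were not well above background on any array.

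Part of the neutrophil list was lower in the same samples. Of its 18 genes, all of them well above background on all 3 arrays, 8 were called lower in Sample 2 over Sample 1 and 7 in Sample 3 over Sample 1, with none called higher. The median log2 ratio of the list was nearer to 0 than these calls, at -0.30 and -0.11. The list summed to signals of 280796, 123123 and 128218 in Samples 1, 2 and 3, and to 79843, 60161 and 54090 without S100a8 and S100a9, the alarmin pair that makes up most of it. Among the 8 were Retnlg, S100a8 (53944, 11605 and 15540), Lcn2 (9597, 2346 and 1739), Mmp8 (3033, 140 and 135) and Cxcr2 (1443, 242 and 283), picked out here after their values were seen. Among the 10 not called in Sample 2 over Sample 1 were Csf3r (39796, 38837 and 33261), Ly6g (517, 352 and 532), Elane (1126, 1383 and 1533), Mpo (1996, 2705 and 2152) and Camp (5295, 7500 and 8696). Macrophage markers had 2 of 14 called lower in Sample 2 over Sample 1 and 2 in Sample 3 over Sample 1, with sums of 186572, 167318 and 161957. In a bulk sample, fewer cells of a type and less RNA per cell cannot be told apart, and the part of neutrophils in the levels of Chi3l1, Chi3l3 and Chi3l4 was not tested.

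**Figure D3:**
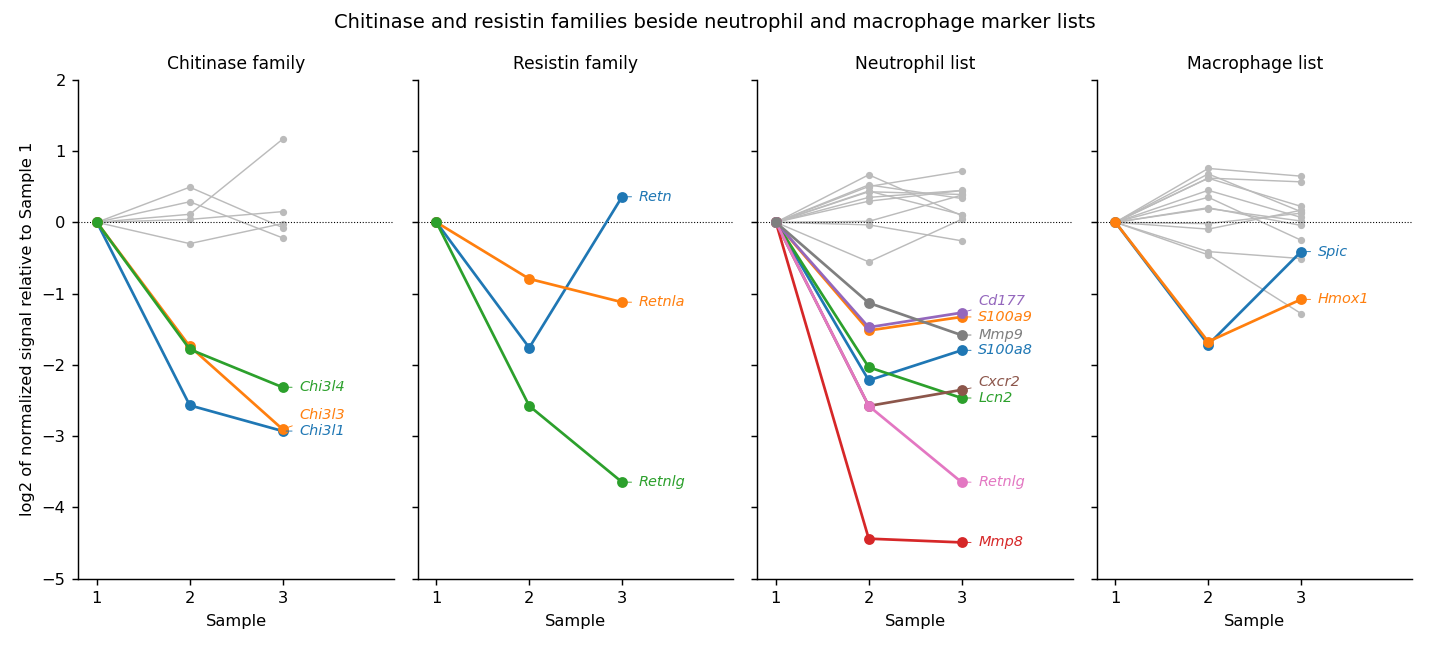
log2 of the normalized signal relative to Sample 1 for the chitinase family, the resistin family, the neutrophil list and the macrophage list. Colored and named genes are those called in Sample 2 over Sample 1 (and Retnla), grey lines the others, and all points shown were well above background. Chi3l1, Chi3l3, Chi3l4 and Retnlg lie between -3.64 and -1.74 in Samples 2 and 3. Retnlg is in both the resistin family and the neutrophil list.

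Il10 encodes interleukin-10, a cytokine that restrains inflammation. It was the one gene of the 10 read by 10 spots on each array. Before normalization these spots had a mean of 33.3 ± 4.24 (SD, n = 10 spots) in Sample 1, 19.8 ± 3.12 in Sample 2 and 49.5 ± 6.53 in Sample 3. They ran from 27.0 to 39.5, from 15.2 to 25.8 and from 37.6 to 59.1, so the spots of Sample 2 overlapped with those of neither other sample, while those of Samples 1 and 3 touched. Spots of 1 array share its RNA and its labeling and are no replicates of the spleen. In Sample 2, 9 of the 10 spots were well above background.

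After normalization the Il10 signal was 31.1, 19.1 and 55.4 in Samples 1, 2 and 3, lowest on day 2 and highest on day 139. The log2 ratios were -0.70 (Z-score -0.98), 0.83 (Z-score 0.94) and 1.53 (Z-score 1.87), and none passed. Il10 in Sample 3 over Sample 2 did pass with spike-in scaling (log2 ratio 1.92, Z-score 2.36), with detection required on all 3 arrays (Z-score 2.60) and with a scaled median absolute deviation (Z-score 2.54). B-cell markers stood high in the same sample: all 10 of that list had a log2 ratio above 0 in Sample 3 over both other samples. In each comparison 4 were called higher, not the same 4, and the sums were 56295, 57244 and 106779. Of the 11 markers of T cells and regulatory T cells, 10 were above 0 in Sample 3 over Sample 1 and 9 in Sample 3 over Sample 2. Their sums were 14271, 19220 and 26521, with 1 called higher in each of these comparisons. The part of B cells or regulatory T cells in the Il10 signal was not tested.

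Of 11 genes of interleukin-10 signaling measured, none was called higher, 1 was called lower in Sample 2 over Sample 1 and 2 in Sample 3 over Sample 1. Socs3, a feedback inhibitor that interleukin-10 and interleukin-6 both induce, had signals of 7204, 1645 and 2315, a log2 ratio of -2.13 in Sample 2 over Sample 1 and of -1.64 in Sample 3 over Sample 1. Nfil3, a transcription factor downstream of interleukin-10 in macrophages, fell from 806 in Sample 1 to 256 in Sample 3, with 467 in Sample 2. The receptor genes Il10ra and Il10rb had no call.

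**Figure D4:**
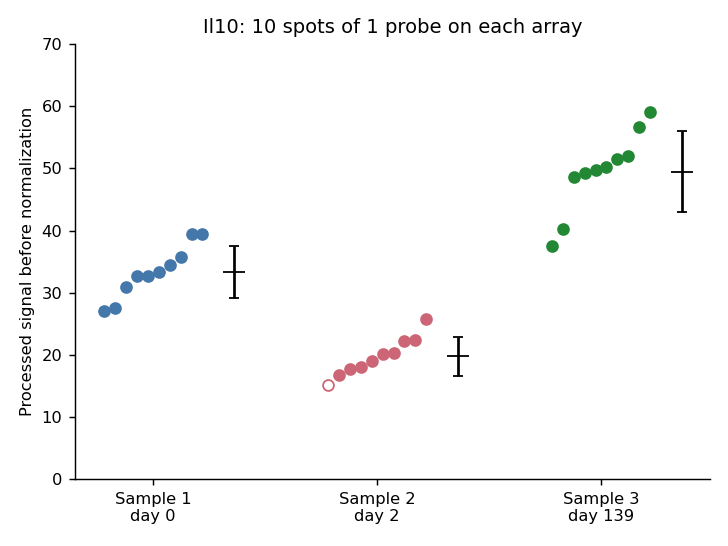
Processed signal of the 10 Il10 spots on each of the 3 arrays before normalization between arrays, sorted within an array, with the mean and SD of the spots at the right of each set. The open circle is the 1 spot not well above background, and the spots of Sample 2 (15.2 to 25.8) lie below all spots of Sample 1 (27.0 to 39.5) and Sample 3 (37.6 to 59.1).

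Trem2, Gpnmb and Spp1 rose together on day 2. Trem2 is a receptor for lipids and apolipoproteins that signals through the adaptor Tyrobp. Its signal, from the plus strand of chr17:48491537-48491596 (mm9), was 184 on day 0, 1738 on day 2 and 242 on day 139. Day 2 stood alone, 9.44-fold above day 0 (log2 ratio 3.24, Z-score 5.93) and 7.19-fold above day 139 (log2 ratio of Sample 3 over Sample 2 -2.85, Z-score -4.30). Samples 1 and 3 were not apart, with a log2 ratio of 0.39 and a Z-score of 0.56.

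Spp1 encodes osteopontin, a secreted matrix protein that binds integrins and CD44 and is made by activated macrophages, injured epithelia and some islet and duct cells. Its probe, on the plus strand of chr5:104868502-104868561 (mm9), reads coding sequence, and the 21 bases in capitals encode the stretch beside the RGD site that the integrins of the alpha4 and alpha9 subunits recognize once thrombin has cut the protein:

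Spp1 probe: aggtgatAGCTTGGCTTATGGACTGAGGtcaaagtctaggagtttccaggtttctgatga

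The Spp1 signal was 114 on day 0, 648 on day 2 and 13.4 on day 139, where it was not well above background. Each sample stood apart from the others. It rose 5.71-fold from Sample 1 to Sample 2 (log2 ratio 2.51, Z-score 4.18). In Sample 3 it was at least 6.24-fold lower than in Sample 1 (Z-score -4.96) and at least 35.6-fold lower than in Sample 2 (Z-score -8.47). Spp1 and Arg1 were the 2 genes of the 10 that were not well above background in Sample 3.

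Gpnmb encodes osteoactivin, a membrane glycoprotein of macrophages loaded with lipid or debris and a target of the lysosomal factor MITF. Its signal, from the plus strand of chr6:49006386-49006445 (mm9), was 65.4 on day 0, 165 on day 2 and 84.5 on day 139. It rose 2.53-fold to Sample 2 (log2 ratio 1.34, Z-score 2.19), a call that was lost with 1 SD over all probes (Z-score 1.99). Sample 3 was between the other 2, at a log2 ratio of 0.37 (Z-score 0.57) over Sample 1 and of -0.97 (Z-score -1.46) over Sample 2. Among the 3 genes, the day 2 rise was thus 9.44-fold for Trem2, 5.71-fold for Spp1 and 2.53-fold for Gpnmb.

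Because these 3 rose together, their promoters were searched in the same way. The letters GAGGAA of PU.1 and other ETS factors stood 40 bases before the Trem2 start and 113 bases before the Spp1 start but not in the Gpnmb window. They were held by 4 of the 8 member promoters and by 23.3% of all promoters. The AP-1 letters TGAGTCA stood in none of the 8, against 4.46% of all promoters. The E-box CACGTG that MITF can bind stood in none of the 8, against 6.02%. The 120 bases before the starts are shown with the GAGGAA letters in capitals, at chr17:48346281-48346400 for Trem2 and chr5:104434991-104435110 for Spp1, both on the plus strand of GRCm38.p6 from RefSeq. In Trem2 these letters lie on the other strand and read as TTCCTC:

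Trem2 promoter: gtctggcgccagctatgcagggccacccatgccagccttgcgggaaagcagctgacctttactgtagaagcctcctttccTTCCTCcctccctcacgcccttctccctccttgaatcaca
Spp1 promoter: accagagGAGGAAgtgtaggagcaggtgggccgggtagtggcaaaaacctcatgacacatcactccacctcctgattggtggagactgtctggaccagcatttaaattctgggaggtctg

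Most genes that work with Trem2, like most detected probes, were not called on day 2. Of 20 further genes of TREM receptors and lipid-associated macrophages, 2 were called higher (Lgals1 and Apoe) and 2 lower (Trem1 and Trem3) in Sample 2 over Sample 1. The shares of all detected probes were 1.91% and 2.55%. The list had a median log2 ratio of -0.05 against 0.01 over all detected probes. Lgals1, a galectin of many activated and mesenchymal cells, rose from 4812 to 20056 and fell to 6903 in Sample 3. Apoe, a lipid carrier that Trem2 binds, had signals of 36888, 64135 and 51767. Tyrobp had 17102, 16120 and 14947, with no call. Trem1 (1334, 699 and 713) and Trem3 (356, 114 and 116), the receptors of neutrophils and inflammatory monocytes, went the other way from Trem2 on day 2. Plin2, a coat protein of lipid droplets, fell from 7835 in Sample 2 to 2243 in Sample 3.

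Genes of the lysosome and MITF list, like most detected probes, were mostly not called. Of the 15 measured, none was called higher in any comparison, against 1.91% to 2.52% of all detected probes. In Sample 2 over Sample 1, 1 was called lower: Sdc4, a heparan sulfate proteoglycan of the cell surface (330, 161 and 135). The median log2 ratio of this list was 0.28 in Sample 2 over Sample 1, -0.16 in Sample 3 over Sample 1 and -0.26 in Sample 3 over Sample 2. Spike-in scaling turned the last 2 to 0.24 and 0.11.

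Among 12 receptors and partners of osteopontin measured, 1 was called higher and 2 lower in Sample 2 over Sample 1. Sparc, another secreted matrix protein, had signals of 66029, 120169 and 45061, and was highest on day 2 like Spp1, at a log2 ratio of 0.86. Mmp3, a protease that cuts osteopontin, had 1055 and 1215 in Samples 1 and 2 and fell to 143 in Sample 3, 7.36-fold below Sample 1. Thbs1, thrombospondin 1, had 3164, 1589 and 726, and Mmp9, the gelatinase of neutrophils and macrophages, 221, 101 and 73.8, both called lower in Samples 2 and 3 over Sample 1.

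Most markers of the fibroblast and mesothelium list and of the islet list were called higher on day 2, as Trem2, Spp1 and Gpnmb were. None of the 14 macrophage markers was called higher in Sample 2 over Sample 1, and their median log2 ratio was 0.20. Of the 12 markers of fibroblasts and mesothelium, 7 were called higher and 1 lower in Sample 2 over Sample 1, and the list summed to 18223, 80797 and 29377 in Samples 1, 2 and 3. All of these were well above background on every array except Upk3b in Sample 1. Col1a1 (1179, 11182 and 1361) and Acta2 (3364, 24804 and 3500), picked out after their values were seen, were highest in Sample 2 like Trem2. Pdgfra (1189, 649 and 422), the 1 called lower, and Pdgfrb (2219, 1494 and 1052), not called, went the other way on day 2. Others of the list were highest in Sample 3, such as Msln (96.4, 390 and 2283) and Dcn (1585, 2067 and 9670), and in Sample 3 over Sample 2 the list had 5 genes called higher and 4 lower. Of the 11 islet markers measured of 12, 9 were called higher in Sample 2 over Sample 1 and 11 lower in Sample 3 over Sample 2, with sums of 63897, 109018 and 33414. The exceptions to signals well above background among these 11 were Ttr in Sample 1 and both Pcsk1 and Ppy in Sample 3. Of 12 pancreatic duct and acinar markers, 9 were measured. In Sample 2 over Sample 1, 2 were called higher, and in Sample 3 over Sample 1, 4 were. Their sums were 1141, 1142 and 1988, and Cpa1, Pnlip and Prss2 were not well above background in Samples 1 and 2. Krt19 is on this list and on that of fibroblasts and mesothelium. The part of fibroblasts, islet cells or duct cells in the levels of Trem2, Spp1 and Gpnmb was not tested.

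**Figure D5:**
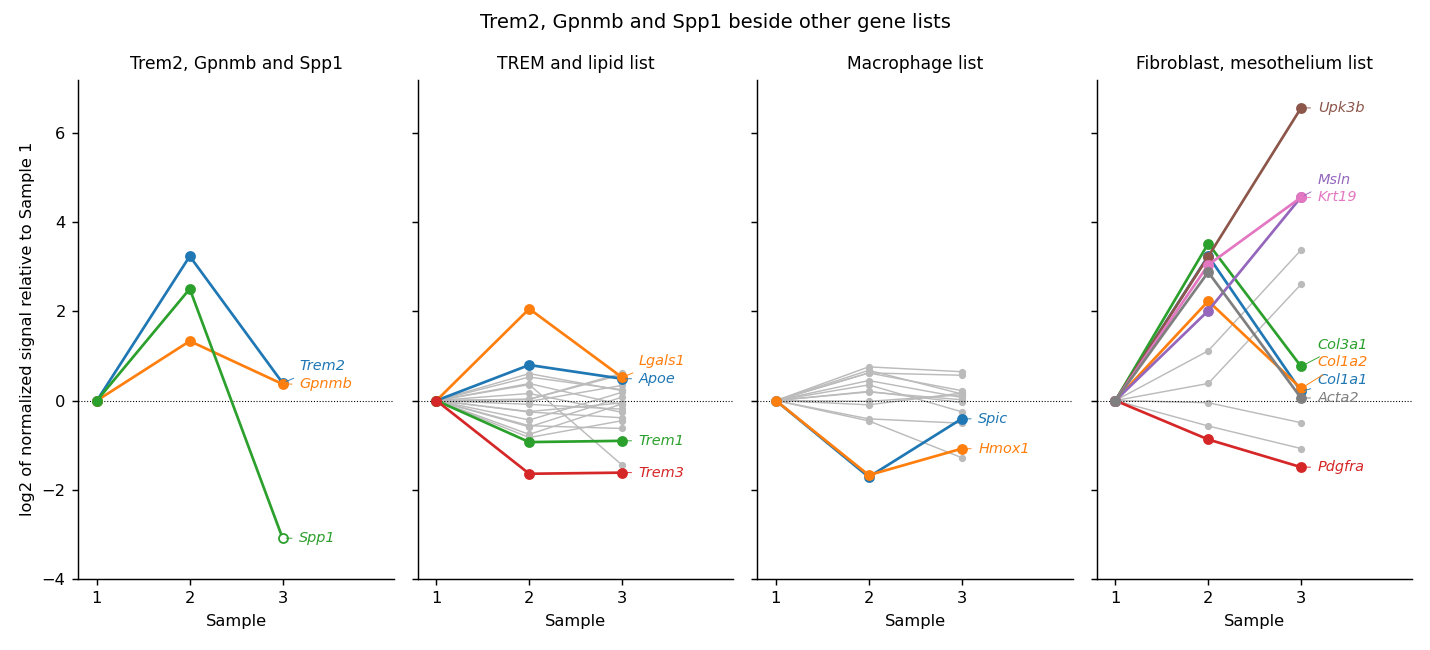
log2 of the normalized signal relative to Sample 1 for Trem2, Gpnmb and Spp1, for the TREM and lipid-associated macrophage list, for the macrophage list and for the list of fibroblasts and mesothelium. In the lists, colored and named genes are those called in Sample 2 over Sample 1 and grey lines the others, and open circles were not well above background. Trem2, Spp1 and Gpnmb reach 3.24, 2.51 and 1.34 in Sample 2, where no macrophage marker is called higher.

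Tgfbi encodes a secreted matrix protein induced by transforming growth factor beta and made by monocytes, macrophages and fibroblasts. Its signal, from the plus strand of chr13:56740460-56740519 (mm9), was 20132 on day 0, 12864 on day 2 and 10356 on day 139. It was highest in Sample 1 and lowest in Sample 3, but no difference passed: the log2 ratios were -0.65 (Z-score -1.30), -0.96 (Z-score -1.64) and -0.31 (Z-score -0.59). With a scaled median absolute deviation as the spread, Tgfbi was called lower in Sample 2 (Z-score -2.38) and in Sample 3 (Z-score -3.20) over Sample 1, and so was Retnla (Z-scores -2.29 and -2.89).

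Among the genes of transforming growth factor beta signaling, 2 were called higher in Sample 2 over Sample 1, 1 in Sample 3 over Sample 1 and none in Sample 3 over Sample 2. Both were ligands. Tgfb2 rose from 52.0 to 172 in Sample 2 and had 98.0 in Sample 3. Tgfb3 had 121, 291 and 491 and was called higher in Samples 2 and 3 over Sample 1.

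Facts of the arrays that bear on all of these values are few. Probes well above background numbered 30291, 29982 and 28088 of 55679 in Samples 1, 2 and 3, and no spot of a gene was saturated. Those probes were 54.4%, 53.8% and 50.4% of all. The 10 B-cell, 11 T-cell, 14 macrophage and 10 erythroid markers were all well above background on all 3 arrays. These cells are also found elsewhere, so their markers do not tell spleen from other tissues that hold them. The table of values that the authors deposited gave the same order of the 3 samples for all 10 genes. It holds the same arrays under the same kind of normalization, so it is no independent check.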

How the data were processed

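The authors deposited, for each array of the Agilent SurePrint G3 Mouse 8x60K design, the scanner output with the intensity of every spot, and 1 table of processed intensity values per probe. Per the file headers, Feature Extraction version 10.7.1.1 subtracted the background and corrected spatial trends, whereas the submitters' processing notes name version 9.5.1.1; the labels and the methods also name different RNA and labeling kits. Probe positions are those of the files (mm9). The processed signals were taken without controls and outlier-flagged spots, replicate spots of a probe entered as their mean, and 55679 probes were quantile normalized, the normalization of the study, with a floor of 1 before log2. A probe was well above background when at least 1 of every 2 of its spots was, and 32108 were so on at least 1 array. The number of arrays limits the precision.

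The 10 genes and all lists were chosen with earlier results of these data known. Named beside them are all measured genes of their families. From each pathway list come at most 3 per comparison, those of widest log2 ratio among genes called and well above background on both arrays. Arg2, Nos2, Ptgs2, Il4, Il4ra, Il13ra1, Tyrobp, Apoe, Il10ra, Il10rb and the markers named singly were added after their values were seen. A gene that the study names, and the calls lower in the list of transforming growth factor beta signaling, are not reported here. Each gene of a list was read by its brightest detected probe. Alternatives were normexp (offset 50, limma 3.58.1, R 4.3.3), 8 spike-in controls or the 75th percentile for scaling, the deposited values, no detection filter or detection on all 3 arrays, flagged spots kept, a scaled median absolute deviation or 1 SD over all probes for the spread, and the median of a gene's probes. Other steps used Python 3.11.15, numpy 2.4.6 and pandas 2.3.3. Promoters were the 250 bases before the start in a RefSeq table.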

Additional observations from a re-analysis of the deposited data

How the results depend on the processing

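Of 294 log2 ratios of the 10 genes recomputed under 10 alternatives, 279 kept their direction and their side of the criteria, 4 lost a call and 9 gained one, and no called ratio changed sign. Some alternatives could hardly change a value, so the 279 do not measure robustness. Each gene had 1 probe, so the median of a gene's probes repeated the main values. The deposited values were nearly those of the main setting, and no spot of the 10 genes was flagged as an outlier. The lost calls were Gpnmb in Sample 2 over Sample 1 and Chi3l3, under 3 alternatives, in Sample 3 over Sample 2. With a scaled median absolute deviation, 4 genes were called lower in Sample 2 over Sample 1. Retnla and Tgfbi joined the genes called lower in Sample 3 over Sample 1. In Sample 3, 1 gene was called higher over Sample 1 and 1 over Sample 2. This spread was narrower for the genes that gained a call: Mgl2 in Sample 3 over Sample 1 had a Z-score of 3.08 against 1.57, both at a log2 ratio of 0.66. The share of all probes called with this spread is not given. With spike-in scaling, 1 gene was called higher in Sample 3 over Sample 1 (Mgl2) and 1 in Sample 3 over Sample 2 (Il10). With detection required on all 3 arrays, Arg1 and Spp1 leave the test by construction, so 2 genes were called lower in Sample 3 over Sample 1 and 2 in Sample 3 over Sample 2, and 1, Il10, was called higher in the latter. The cause of the other differences was not tested. Spike-in scaling moved the overall median to 0.35 in Sample 3 over Sample 1 and to 0.34 in Sample 3 over Sample 2. No paired analysis was possible because each condition has 1 array. Signals of Arg1 and Spp1 in Sample 3 give only bounds.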

Other observations

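Markers of the other blood cells that can carry these genes were counted in the same way. Of 11 monocyte markers measured, 1 was called higher and 3 lower in Sample 2 over Sample 1, 1 higher and 1 lower in Sample 3 over Sample 1, and none in Sample 3 over Sample 2. The list summed to 74957, 63152 and 75758 in Samples 1, 2 and 3. Of 11 markers of eosinophils, basophils and mast cells, which release interleukin-4, 1 was called higher and 3 lower in Sample 2 over Sample 1, and the sums were 14987, 8258 and 9617. The 10 dendritic cell markers, a cell type that carries Mgl2, had no call in any comparison, with sums of 89466, 84330 and 82314. The 11 T-cell markers summed to 14271, 19220 and 26521, with 1 called higher in Sample 3 over each of the other samples. Spic, a factor of the red-pulp macrophages that recycle iron, fell from 13171 in Sample 1 to 4011 in Sample 2 and rose to 9906 in Sample 3, and was named after its values were seen. Hmox1, the heme-splitting enzyme of the same cells, fell from 35150 to 11015 in Sample 2 and had 16617 in Sample 3. The other 12 macrophage markers were not called in Sample 2 over Sample 1, among them Vcam1 (27025, 31152 and 26228) and Slc40a1 (9820, 9192 and 11040), genes of the same red-pulp cells.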
